A study of Mus musculus with 8 samples.

Results

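Pou2f3, Gfi1b, Sox4, Sox9, Spib, Hmx2, Hmx3, Runx1 and Foxe1 are transcription factors tied to the tuft cell lineage of the gut epithelium. They were chosen by gene symbol and make up 9 of the 35199 genes listed in the deposited count table, where each has a row of its own. Bulk RNA sequencing of sorted jejunal tuft cells compared 4 scopolamine-treated mice with 4 sham mice, 1 library per mouse, to ask whether muscarinic receptor blockade alters the tuft cell phenotype. Every mouse carried the Dclk1-DTR-ZSgreen BAC transgene, made in CBA × C57BL/6J oocytes and backcrossed to C57BL/6J, in which a BAC copy of the mouse Dclk1 gene drives ZSgreen together with the diphtheria toxin receptor. Osmotic pumps were implanted at 8 to 10 weeks of age and released scopolamine, a nonselective muscarinic antagonist, at 0.5 mg per kg per day, or sodium chloride in sham mice, for 7 days. Live cells high in the marker that the study calls EPC and positive for ZSgreen were then sorted, 3000 for replicate 1 of each group and 4000 for the others, so tuft cells in which the transgene is silent were outside the gate. RNA input was 1000 pg with 10 amplification cycles, except in sham 1 and sham 3 (200 pg and 15 cycles), so input is not balanced between the groups. The letter of the mouse ID was M in scopolamine 1 to 3 and sham 1 and N in the other mice, and its meaning is not given in the sources used here.

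Chemosensory tuft cells are scarce in the gut lining and arise from crypt progenitors, as do enteroendocrine, goblet and Paneth cells. POU2F3 is the homeodomain factor without which tuft cells do not form, and GFI1B is a zinc finger repressor that marks the tuft lineage within the epithelium and is otherwise known from erythroid and megakaryocyte precursors. The SOX, ETS, HMX, RUNX and forkhead families supply the other members, several of them better known from progenitor, immune or developmental programs.

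Library totals ran from 14343362 estimated counts in scopolamine 3 to 41428916 in sham 3, and the scopolamine libraries were all shallower than the sham libraries. Levels are given as CPM (counts scaled to a common library size with TMM factors), and 3 counts, used as the detection floor, correspond to 0.0729 CPM in sham 2 and 0.212 CPM in scopolamine 3. The reads carry no molecular identifiers, so floors cover counting error alone.

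The sorted cells carried the tuft cell program in every library. All 32 tuft cell markers had counts and none was at 0 throughout. Cd24a, Dclk1 and Lrmp were among the most abundant, at 3205 to 7246, 3432 to 5725 and 1701 to 3209 CPM. Dclk1 is the gene whose BAC copy drives the sorted ZSgreen, so its level is not independent of the gate. It is also part of the summed markers. The summed markers reached 39558, 27549, 44732 and 26157 CPM in scopolamine 1 to 4 and 37581, 41244, 40292 and 35755 CPM in sham 1 to 4. Scopolamine 2 and scopolamine 4 lay below every sham library and scopolamine 3 above all of them, so the groups overlapped (34499 ± 9096 against 38718 ± 2512 CPM, SD, n = 4 each). In bulk RNA of sorted cells, fewer tuft cells and less tuft cell RNA per cell cannot be told apart.

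Of the 9 members, 8 were measured at 74.2 CPM or more in every library and passed the expression filter, and Foxe1 did not. Among the 8, edgeR called 0 at an adjusted p under 0.1, beside 0 of 12849 genes tested (0%). At an unadjusted p under 0.05 the list held 1 member, Sox4, against 770 of the 12849 genes (5.99%), and in the lower direction 1 member against 342 genes (2.66%). No member was under it without scopolamine 2 (smallest unadjusted p of a member 0.0578 in edgeR) or without sham 2 (0.0687), with the mouse ID letter as a covariate (0.059) or after scaling to the tuft cell markers (0.127), whereas Sox9 was under it without scopolamine 1 (0.0114). The log2 fold change of Sox4 was -0.50 with the letter as a covariate, beside -0.51 without it. Sox4 was also the 1 member whose groups did not overlap, against 252 genes (1.96%) that did not overlap with lower levels under scopolamine and 499 (3.88%) in either direction. DESeq2 called 193 of 14307 genes (1.35%), 144 of them higher with scopolamine, and 0 members; limma-voom called 0 genes. With shares of this size over all genes, 1 of 8 members is not a result about the set. The fitted changes were positive for 4 members (Gfi1b, Spib, Hmx3, Runx1) and negative for 4 (Pou2f3, Sox4, Sox9, Hmx2), with a median log2 fold change of -0.11 beside -0.011 over all genes, of which 6305 were higher and 6544 lower. The negative signs held in all 19 alternatives, whereas each positive sign turned in some, 1 for Gfi1b, 2 for Runx1, 5 for Spib and 8 for Hmx3. Relative to the median of all genes after scaling to the tuft cell markers, Spib (-0.0033) and Hmx3 (-0.064) were also negative.

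**Figure D1:**
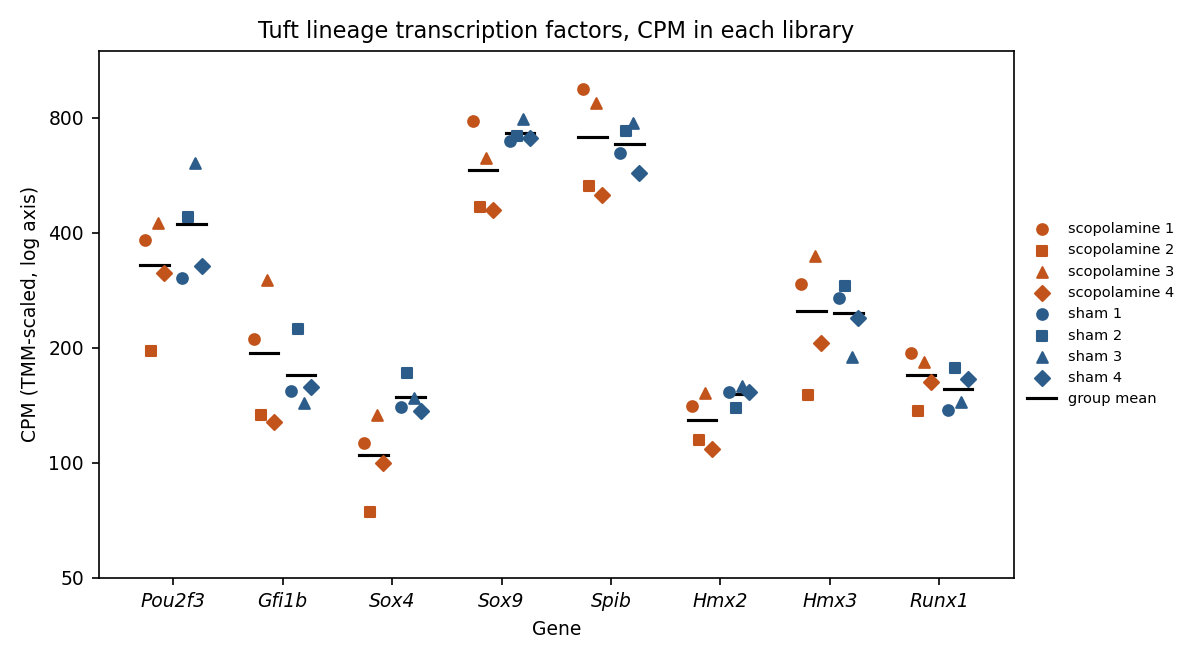
TMM-scaled CPM on a log axis for the 8 members past the expression filter, 1 point per library, with scopolamine in orange, sham in blue and the group mean as a black line; Foxe1, at 0 in 6 libraries, is left out. The 4 scopolamine points of Sox4 lie between 74.2 and 134 CPM, all below the sham points at 137 to 172 CPM, whereas the groups of the other members overlap.

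The members were low together in the same libraries. Scopolamine 2 lay below the sham mean for all 8 members past the filter and scopolamine 4 for 7 of 8, whereas scopolamine 1 lay above it for 5 and scopolamine 3 for 6. The lowest of the 8 libraries was scopolamine 2 for 4 members (Pou2f3, Sox4, Hmx3, Runx1) and scopolamine 4 for the other 4 (Gfi1b, Sox9, Spib, Hmx2). The median log2 ratio of the members to the sham mean was 0.18, -0.52, 0.12 and -0.43 in scopolamine 1 to 4. The summed tuft cell markers gave log2 ratios of 0.031, -0.49, 0.21 and -0.57 in the same libraries. In the sham libraries the members' median lay between -0.086 and 0.14 and the summed markers between -0.11 and 0.091. The members therefore were low in the libraries whose tuft cell markers were low. How many of all genes were also low there is not given here, so the pattern is not shown to be particular to the members.

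**Figure D2:**
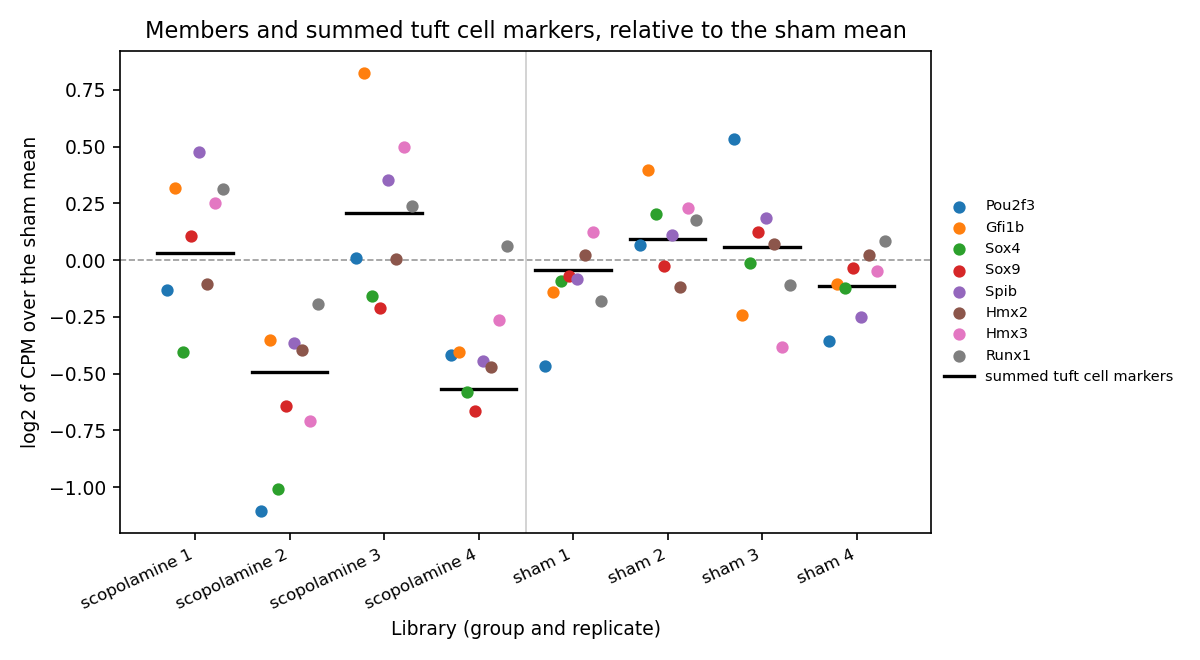
Log2 ratio of each library's CPM to the sham mean (vertical axis, no unit) for the 8 libraries, with 1 coloured point per member and a black bar for the 32 summed tuft cell markers. The bars are lowest in scopolamine 2 and scopolamine 4, at -0.49 and -0.57, and each member has its lowest point in one of these libraries.

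Pou2f3 (chr9:43123939-43210369, minus strand, GRCm38) was measured at 384, 196, 424 and 315 CPM in scopolamine 1 to 4 and at 305, 441, 609 and 329 CPM in sham 1 to 4. Scopolamine 2 stood lowest and sham 3 highest, and the remaining libraries of both groups were interleaved. The log2 fold change was -0.35 (SE 0.27), smaller than the spread between mice (329.7 ± 99.95 against 421 ± 139 CPM, SD, n = 4 each; edgeR adjusted p = 0.873; exact permutation test, two-sided, p = 0.343). Leaving out 1 mouse at a time gave -0.50 to -0.12, the weakest without sham 3.

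POU2F3 depends on small coactivators encoded by Pou2af2 and Pou2af3, listed in the table as 1810046K07Rik and Colca2, next to Pou2af1 on chromosome 9. Pou2af2 was measured at 284, 205, 314 and 213 CPM with scopolamine and at 279, 313, 385 and 454 CPM in sham. Scopolamine 2 and 4 were below every sham library and the other pair lay within the sham range, so the groups overlapped. Its log2 fold change was -0.49 (SE 0.20; edgeR adjusted p = 0.812, 0.403 to 0.999 over the alternatives; exact permutation p = 0.143, n = 4 each). Pou2af3 was measured at 12.9, 13.5, 21.5 and 7.85 CPM against 23.2, 13.9, 19.6 and 27.6 CPM, again with overlap (log2 fold change -0.60, SE 0.38, edgeR adjusted p = 0.843). Pou2af1, the B cell coactivator, had 44 counts in scopolamine 1, 1 in scopolamine 3 and 0 elsewhere. The ubiquitous relative Pou2f1 was measured at 5.01 to 19.3 CPM and the lymphoid Pou2f2 at 0.347 to 1.24 CPM, both with overlapping groups.

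Gfi1b (chr2:28609450-28621982, minus strand) was measured at 212, 133, 301 and 128 CPM with scopolamine and at 154, 224, 144 and 158 CPM in sham. Scopolamine 3 was the highest library and scopolamine 2 and 4 were the lowest, so the scopolamine group enclosed the sham group. The log2 fold change of 0.19 (SE 0.28; edgeR adjusted p = 0.936; exact permutation p = 0.743) turned to -0.11 without scopolamine 3. GFI1B represses through the demethylase KDM1A, CoREST proteins and histone deacetylases. Kdm1a was measured at 68.4 ± 17.4 against 69.2 ± 9.20 CPM (SD, n = 4 each) and Rcor1 at 85.9 ± 1.64 against 88.4 ± 22.7 CPM. Hdac1 averaged 215 against 235 CPM, Hdac2 38.4 against 38.2 CPM and Rcor3 18.1 against 13.6 CPM, while Rcor2 had 28 counts in scopolamine 2, 82 in sham 4 and at most 7 elsewhere. None of these corepressor genes was called by edgeR. The paralogue Gfi1, which acts in secretory and lymphoid cells, had 65 and 80 counts in scopolamine 2 and 4, 8 in sham 2, 1 in scopolamine 1 and 0 in the rest. Gfi1 counts were thus found mainly in the libraries where Gfi1b was lowest, and what part other cell types had in this was not tested.

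Sox4, an HMG-box factor of crypt progenitors that takes part in tuft cell differentiation, showed the clearest separation. It was measured at 112.5, 74.2, 134 and 99.6 CPM in scopolamine 1 to 4 and at 140.1, 172, 148 and 137 CPM in sham 1 to 4. Each scopolamine library was below each sham library, the closest pair being scopolamine 3 and sham 4. The scopolamine mean was 29.6% below the sham mean, with a log2 fold change of -0.51 (SE 0.19; exact permutation test, two-sided, p = 0.0286, the smallest that 70 assignments allow). After adjustment over all genes this was not called by edgeR (adjusted p = 0.812) or DESeq2 (adjusted p = 0.297, within a range of 0.297 to 0.999 over the alternatives). Its SoxC relatives were scarce, Sox12 at 0 to 2.63 CPM and Sox11 at 0 to 0.468 CPM.

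Sox4 was also set against the tuft cell markers. Per 1000 CPM of summed tuft cell markers, Sox4 stood at 2.84, 2.69, 2.99 and 3.81 CPM with scopolamine and at 3.73, 4.17, 3.67 and 3.83 CPM in sham. On this scale scopolamine 4 lay within the sham range and the groups overlapped (3.08 ± 0.499 against 3.85 ± 0.223, SD, n = 4 each; exact permutation p = 0.0857). Scaling the edgeR model to these markers, a choice made after seeing the data, moved the log2 fold changes of single genes by a median of 0.24, which put the median of all genes at 0.22. The log2 fold change of Sox4 was then -0.32, or -0.54 relative to that median, and Pou2f3 was at -0.17, or -0.39 relative to it. The edgeR adjusted p of Sox4 in this model was 0.894, within the range given above.

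The Sox4 counts also have an annotation limit. Sox4 is a single-exon gene (chr13:28948919-28953713, minus strand), and 2616 of its 4795 exon bases (54.6%), all of them in the 3′ untranslated region, coincide with an exon of the long noncoding RNA Gm26735 on the opposite strand (chr13:28943048-28951671). Of the 4765 31-base words of the Sox4 transcript, 2607 (54.7%) occur in transcripts of other genes, 2586 of them in Gm26735. The table has no row for Gm26735, as for most long noncoding RNAs (25 of 5847 such symbols have a row), and use of strand in the counting is not given in the sources used here. Reads from the bases common to Sox4 and Gm26735 therefore cannot be told apart, and the Sox4 level is uncertain to that extent, while the coding part lies outside the overlap. Other members shared far fewer words with other genes, from 0% for Gfi1b to 3.67% for Pou2f3.

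**Figure D3:**
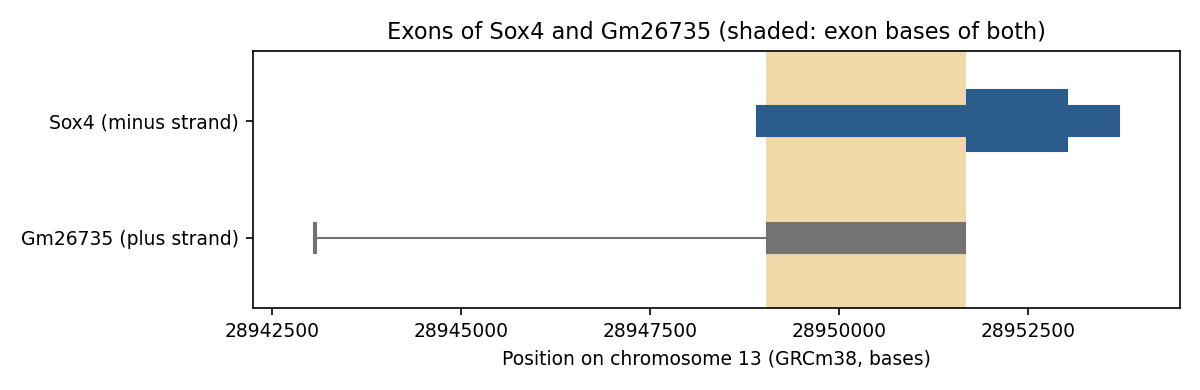
Exons of Sox4 (minus strand, blue, the taller box being the coding part) and Gm26735 (plus strand, grey, with its intron as a line) along chromosome 13 of GRCm38, in bases. The shaded stretch from 28949056 to 28951671 holds the 2616 bases that are exonic in both, and it ends before the coding part of Sox4.

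For the member whose groups did not overlap, the 236 bases ahead of its annotated exon are shown (RefSeq, GRCm38.p6, chr13:28953714-28953949, 5′ to 3′ on the minus strand). Capitals mark the letters CCAAT or its reverse complement ATTGG, the element read by the ubiquitous factor NF-Y, whose first bases lie at -157, -90 and -33 from the start of that exon.
Sox4: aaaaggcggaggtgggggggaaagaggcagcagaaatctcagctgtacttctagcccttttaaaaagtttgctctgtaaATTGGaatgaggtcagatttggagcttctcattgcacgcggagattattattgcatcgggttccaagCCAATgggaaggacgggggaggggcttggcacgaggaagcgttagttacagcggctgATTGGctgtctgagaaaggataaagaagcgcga
The full window, from 250 bases before to 50 bases after the RefSeq start, held 4 such matches, and 1.06% of 32851 mouse promoter windows held 4 or more. RefSeq windows were matched for Gfi1b, Spib, Hmx3, Hmx2, Sox4 and Runx1, 8 in all. Hmx2 and Runx1 had more than 1 window each, and Pou2f3, Sox9 and Foxe1 had none. CCAAT occurred on either strand in 6 of the 8, among them each Runx1 window, beside 37.4% of all windows. The octamer ATGCAAAT, the classical POU motif, was in 0 of the 8 and in 1.74% of all windows, and TATAAA in 1 of the 8 and in 13.6%. These matches describe letters in a window and were not tested against the expression values.

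Sox9 (chr11:112782224-112787760, plus strand), a factor of crypt base progenitors and Paneth cells that is also found in tuft cells, was measured at 785, 468, 630.1 and 460.3 CPM with scopolamine and at 695, 716, 795 and 711 CPM in sham. The sham libraries were tightly grouped, and scopolamine 1 alone of the scopolamine libraries lay among them. The log2 fold change was -0.32 (SE 0.18; 586 ± 154 against 729 ± 44.8 CPM, SD, n = 4 each; edgeR adjusted p = 0.82; exact permutation p = 0.143), and it was -0.22 to -0.49 with 1 mouse left out. Its SoxE relative Sox8 ranged from 0 to 7.97 CPM, and Sox10 had no count in any library.

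Spib (chr7:44525993-44532071, minus strand), an ETS factor shared by tuft cells, M cells and B lineage cells, was measured at 951, 530.5, 873 and 503 CPM with scopolamine and at 647, 738, 777 and 575 CPM in sham. Scopolamine 1 and 3 were above and scopolamine 2 and 4 below every sham library, so the group means were close (714 ± 231 against 684 ± 91.1 CPM, SD, n = 4 each) and the log2 fold change was 0.063 (SE 0.22, edgeR adjusted p = 0.985), its sign turning in 5 of 19 alternatives, among them without scopolamine 1 (-0.11). The SD was thus larger with scopolamine, a difference that was not tested. ETS factors of this subfamily bind DNA jointly with IRF4 or IRF8. Irf8 was measured at 4.56, 66.4, 14.2 and 111.5 CPM with scopolamine and at 39.1, 15.3, 39.8 and 18.7 CPM in sham, high in scopolamine 2 and 4, where Spib was lowest. Irf4 had 158 counts in sham 1 and at most 1 elsewhere. The relatives Spi1 and Spic were near the floor in most libraries, with up to 143 counts of Spi1 in sham 3 and at most 4 counts of Spic in any.

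Hmx2 (chr7:131548773-131558014) and Hmx3 (chr7:131542867-131544925), homeobox genes known from inner ear and hypothalamus, lie side by side on the plus strand. Hmx2 was measured at 141, 115, 152 and 109 CPM with scopolamine and at 154, 139, 159 and 154 CPM in sham. Scopolamine 2 and 4 were below the sham range and scopolamine 1 and 3 within it, with a log2 fold change of -0.23 (SE 0.15; edgeR adjusted p = 0.851; exact permutation p = 0.0857). Hmx3 was measured at 295, 151, 349 and 206 CPM with scopolamine and at 269.9, 290.2, 189.6 and 239 CPM in sham. Scopolamine 3 was the highest and scopolamine 2 the lowest, and the log2 fold change was 0.017 (SE 0.25, edgeR adjusted p = 0.996), its sign changing between alternatives. Over all libraries Hmx2 ranged from 109 to 159 CPM and its neighbour Hmx3 from 151 to 349 CPM, a difference in spread that was not tested. Hmx1 had no count in any library. Both genes lie inside the span of Fgfr2 on the opposite strand, with which they share 0 exon bases.

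Hmx2 and Hmx3 share coding sequence, which bears on how reads are assigned to them. Their longest shared stretch, 39 bases, is shown in capitals within 30 bases on each side, from chr7:131555630-131555728 for Hmx2 and chr7:131544270-131544368 for Hmx3 (GRCm38, plus strand, 5′ to 3′).
Hmx2: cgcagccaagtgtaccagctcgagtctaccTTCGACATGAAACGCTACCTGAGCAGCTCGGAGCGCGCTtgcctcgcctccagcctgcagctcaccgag
Hmx3: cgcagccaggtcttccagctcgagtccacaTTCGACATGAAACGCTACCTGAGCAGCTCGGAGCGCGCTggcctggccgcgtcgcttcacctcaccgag
The transcripts have 11 words of 31 bases in common, out of 3184 words of Hmx2 and 1427 of Hmx3, and the shared stretch is short beside coding lengths of 819 and 1068 bases.

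Runx1 (chr16:92601466-92826149, minus strand), a regulator of blood cell formation that tuft cells also express, was measured at 194, 136.5, 184 and 163 CPM with scopolamine and at 138, 177, 145 and 165.5 CPM in sham. Scopolamine 2 and sham 1 were lowest and nearly equal, and the groups overlapped (170 ± 25.4 against 156 ± 18.1 CPM, SD, n = 4 each; log2 fold change 0.12, SE 0.16, edgeR adjusted p = 0.931). The sign turned without the sham libraries of 200 pg (-0.037) and with amplification cycles as a covariate (-0.013). RUNX proteins bind DNA with the partner CBFB. Cbfb was measured at 19.9, 11.0, 17.8 and 24.1 CPM with scopolamine and at 4.58, 31.4, 2.11 and 16.2 CPM in sham, so its lowest libraries were sham 1 and sham 3, the pair made from 200 pg. What part RNA input had in this was not tested. Runx2 ranged from 0.146 to 2.69 CPM, and Runx3, of lymphocytes, had 178 counts in sham 1 and at most 9 elsewhere. Sham 1 also held the highest sum of T and innate lymphocyte markers, 122 CPM, led by Gzma. Of the Runx1 exon bases, 106 (0.881%) coincide with the antisense gene Gm26626, which has no row in the table.

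Foxe1 (chr4:46343609-46346412, plus strand), a forkhead gene best known from thyroid development, had 82, 0, 0 and 1 counts in scopolamine 1 to 4 and 0 in each sham library. It was at 0 in 6 of the 8 libraries and at or under the floor of 3 counts in 7, so the other libraries give no detectable Foxe1 at these depths, and the label of a tuft lineage factor is not borne out for it here. Against sham libraries set at the floor, the scopolamine mean of 1.04 CPM was at least 11.9-fold higher, but scopolamine 1 decides this: without it the mean was 0.0158 CPM, below the floor in both groups, and no fold can be given. The exact permutation p was 0.429 (n = 4 each). The edgeR model without a filter gave an adjusted p of 0.587, and DESeq2 gave no adjusted p. Foxe3, its relative, had 98 counts in sham 3 and 0 elsewhere.

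Per kilobase of exon, the members were ordered Spib (244 CPM per kb), Hmx3 (171), Sox9 (159), Pou2f3 (121.5), Gfi1b (99.3), Hmx2 (43.6), Sox4 (26.5), Runx1 (13.5) and Foxe1 (0.185), as means of the 8 libraries. Spib exceeded Hmx3 in all 8 libraries. Hmx3 exceeded Sox9 in 5 of 8, so these neighbours do not differ beyond their spread. Sox9 exceeded Pou2f3 in 7 of 8 and Pou2f3 exceeded Gfi1b in 6 of 8, an order that held in most libraries but not in each. From Gfi1b downwards each member was above the next in 8 of 8 libraries. The order was the same with any 1 library left out, whereas by CPM without division by length 3 of 9 members held their rank. Exon length was taken from the annotation, and the transcripts that these cells use were not examined.

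The genes whose profiles were most like Pou2f3 over the 8 libraries, among 12849 genes, were Acvr1b, Agt and Nbr1, with root mean square differences of 0.14, 0.15 and 0.16 log2 units after centring. For Sox4 they were Pigc, Jakmip1 and Ppp3ca, with 0.12, 0.13 and 0.16. Pigc was measured at 63.8, 48.0, 78.5 and 53.6 CPM with scopolamine and at 71.1, 86.1, 73.3 and 72.2 CPM in sham, and Acvr1b at 16.7, 8.75, 20.5 and 14.7 CPM against 12.9, 17.4, 22.2 and 16.3 CPM. All 6 had their lowest level in scopolamine 2, and for none did the groups separate as for Sox4.

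Of the genes around the members, taken as lists, edgeR called none. Of 13 close relatives, 11 had a count and 5 passed the filter, 2 higher and 3 lower with scopolamine (median log2 fold change -0.18). Of 12 protein partners, 9 passed it, 4 higher and 5 lower (median -0.017), with Pou2af2 the 1 gene at an unadjusted p under 0.05, beside 5.99% of all genes. It was under that p in 13 of 19 alternatives, and not without scopolamine 2 (0.0931), scopolamine 4 (0.0868), sham 3 (0.0703) or sham 4 (0.107), with the mouse ID letter as a covariate (0.1125) or after scaling to the tuft cell markers (0.152). The log2 fold change of Pou2af2 was -0.61 to -0.36 with 1 library left out and -0.45 with the letter, beside -0.49. After that scaling, which put the median of all genes at 0.22, it was -0.32, or -0.55 relative to that median. Of 7 secretory fate regulators, 6 passed the filter, 2 higher and 4 lower (median -0.016). Among these, Ascl2, a stem cell factor, was measured at 30.5 to 78.6 CPM, Klf4, a factor of differentiated and goblet cells, at 55.7 to 103.8 CPM, Creb3l1 at 16.6 to 24.1 CPM, Spdef, which acts in goblet and Paneth cells, at 7.48 to 48.9 CPM and the Notch target Hes1 at 4.01 to 20.3 CPM. Atoh1, which opens the secretory lineages, was measured at 1.80, 2.15, 3.39 and 9.50 CPM with scopolamine. In sham it was at 0, 2.70, 0 and 2.895 CPM. Its libraries at 0, sham 1 and sham 3, were made from 200 pg, and what part RNA input had was not tested. Neurog3, the enteroendocrine factor, had 79, 22, 0 and 0 counts with scopolamine and 1, 0, 0 and 0 in sham. Every one of these genes overlapped between the groups. Of the tuft cell markers 31 passed the filter, 6 higher and 25 lower, 1 of them at an unadjusted p under 0.05 (median -0.14).

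Markers of other epithelial cells were present in every library, at levels that varied from mouse to mouse. Of 20 enteroendocrine markers 13 passed the filter, 11 higher, 2 of them at an unadjusted p under 0.05, and 2 lower (median 1.40), where 428 of all 12849 genes were higher at that p. Their sum was 445, 921, 469.9 and 1061 CPM in scopolamine 1 to 4 and 274.5, 180.1, 1449 and 294.5 CPM in sham 1 to 4. Sct, the most abundant of them, was itself at 193 to 263 CPM with scopolamine and 162 to 304 CPM in sham (log2 fold change -0.13). The 8 goblet markers, 7 higher, 1 of them at that p, and 1 lower (median 0.94), were led by Tff3 and summed to 3545, 2123, 683 and 1109 CPM against 1378, 353, 1179 and 355 CPM. All 8 Paneth markers were higher, 2 at that p (median 3.13), and their sum, led by Lyz1, was 1460 CPM in scopolamine 4 beside 40.8 to 174 CPM in the other libraries. All 12 enterocyte markers were higher, 5 at that p (median 1.56), and their sum, led by Fabp1, was 3406, 7457, 6473 and 3907 CPM against 6841, 2650, 2773 and 2622 CPM. The enteroendocrine sum was larger in each scopolamine library than in every sham library other than sham 3. Within the scopolamine group it was larger in scopolamine 2 and 4 (921 and 1061 CPM), where the members were low, than in scopolamine 1 and 3 (445 and 469.9 CPM). Of 8 stem cell markers 7 passed the filter, 1 higher and 6 lower (median -0.13), summing to 165 to 312 CPM with Slc12a2 most abundant. Of 8 M cell markers 6 passed it, 5 higher and 1 lower (median 0.44), summing to 198 to 340 CPM with Marcksl1 most abundant and Gp2, which defines these cells, at 0 throughout.

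Among immune and stromal markers, those of B cells had the largest sums. The 8 B cell markers summed to 102, 465, 196 and 751 CPM with scopolamine and to 219, 113, 144 and 85.1 CPM in sham, most of it from Cd74, a gene of antigen presentation in many cell types (93.5, 460.2, 189 and 735 CPM against 202, 93.6, 123 and 62.6 CPM). Of these 5 passed the filter, 1 higher, at an unadjusted p under 0.05, and 4 lower (median -1.21). The sum was highest in scopolamine 2 and 4, as for Irf8. Of 10 T and innate lymphocyte markers 8 passed, 6 higher and 2 lower (median 0.44), with sums of 2.87 to 122 CPM. Myeloid markers summed to 7.21 to 32.5 CPM, led by Lyz2, with 2 of 8 past the filter and both higher (median 0.43). Stromal markers summed to 12.2 to 24.1 CPM, led by Pecam1, with 3 of 8 past it, 1 higher and 2 lower (median -0.13). The erythroid and megakaryocyte markers, relevant to Gfi1b and Runx1, summed to 2.25, 3.18, 2.96 and 2.36 CPM with scopolamine and to 0.151, 1.70, 0.0991 and 0.298 CPM in sham, with Alas2 the most abundant and 0 of 8 past the filter. Their sums were low but did not overlap between the groups, each scopolamine library lying above each sham library. Of all genes past the filter, 3.88% did not overlap in either direction. That share is for single genes and gives no rate for a sum of genes that the filter removed. Alas2 itself overlapped, at 0.150 and 0 CPM in scopolamine 1 and 4 and 0.269 CPM in sham 4. The lowest sums were those of sham 1 and sham 3, made from 200 pg, and what part RNA input had was not tested. None of the genes on these lists was called by edgeR. What part the other cell types had in the levels of the members was not tested.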

How the data were processed

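RNA of sorted ZSgreen-positive cells was sequenced for 8 mice. The authors trimmed adaptors with bcl2fastq 2.20, assigned reads to the GRCm38 transcriptome with kallisto 0.44.0, summarised them with tximport and deposited the unnormalized estimated counts of each gene. Rounding to whole numbers changed no value. The annotation release, the word length of the index and the use of strand are not given in the sources used here.

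Groups were compared with edgeR 4.0.16 (TMM, filterByExpr, quasi-likelihood test, Benjamini-Hochberg adjusted p under 0.1 over all genes) in R 4.3.3. Foxe1 and other genes removed by the filter take their values from the same model without it. Single genes were compared by two-sided exact permutation tests of log2 CPM (prior count 2), not adjusted over the members. DESeq2 1.42.0, limma-voom (limma 3.58.1), other scalings, other filters, covariates, thinning (seed 1) to 14343362 counts and leaving out libraries were the alternatives. The models were tested on simulated data. Each library came from a separate mouse. Within groups no pair agreed within sampling noise (chi-square per degree of freedom 67.5 to 212.5), as a repeated deposit of the same library would.

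Named genes are the members, all close relatives, protein partners and secretory fate regulators, the most abundant gene of each marker list (4 for tuft cells), marker genes at 0 throughout, and the 3 profiles nearest to Pou2f3 and Sox4; 1 of the tuft cell markers is not reported here by name. Members and lists were chosen with earlier results of these data known. The pairing of Pou2af2 and Pou2af3 with their older symbols is background knowledge. Coordinates and exon lengths are from GENCODE M21 on GRCm38, promoters from RefSeq on GRCm38.p6. Shared words of 31 bases, the default of kallisto, were counted on either strand between transcripts in Python 3.11.15 (numpy 2.4.6, pandas 2.3.3).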

Additional observations from a re-analysis of the deposited data

Results flagged for a closer look

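In 10 of 72 groups of 4 libraries examined for single genes, 1 library stood so far from the rest that the gap to its nearest neighbour, as a share of the group's range, passed the critical value of Dixon's test. About 1 in 20 groups would do so by chance, and genes with counts in 1 library do so by construction. Foxe1 stood apart in scopolamine 1 (0.989 of the range), as did Pou2af1 in the same library (0.968). Irf4 (0.995) and Runx3 (0.989) stood apart in sham 1, Spi1 (0.996) and Foxe3 (1) in sham 3, Gfi1 (1) in sham 2 and Rcor2 (0.985) in sham 4. In scopolamine 2 Spi1 stood above the others (0.857), and in scopolamine 3, the library with the fewest counts, Runx3 stood below them (0.845) at a single count. All of these genes were removed by the expression filter, and the cause was not tested. The 8 members past the filter had no such library in either group.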

How the results depend on the processing

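No member was called under any of the 20 alternatives, and Foxe1 had no value under those with a filter. The number of genes called, 0 in edgeR with 770 at an unadjusted p under 0.05, was 193 with DESeq2, 9 without the 2 sham libraries of 200 pg, 5 with amplification cycles as a covariate, and 0 to 2 with 1 library left out (1 without scopolamine 4, 2 without sham 1). The log2 fold changes of Pou2f3, Sox4, Sox9 and Hmx2 stayed negative throughout. For Sox4 they ran from -0.65 to -0.38 with 1 library left out and from -0.58 to -0.32 otherwise, weakest after scaling to the summed tuft cell markers. That scaling was chosen after seeing the data, and with it the exact permutation p of Sox4 was 0.0857 and that of Hmx3 0.457. It was also 0.0857 for Spib and Runx1 and 0.8286 for Hmx2. This scaling moves all genes up by a median of 0.24, and relative to the median of all genes Spib was at -0.0033, Runx1 at 0.099 and Sox4 at -0.54. Gfi1b ran from -0.11 to 0.35 with 1 library left out and was at 0.0036 without the sham libraries of 200 pg, 0.021 with cycles and 0.018 with the mouse ID letter as a covariate. Spib was at -0.0015 with limma-voom, -0.095 with the mouse ID letter as a covariate, and -0.11 to 0.19 with 1 library left out. Hmx3 was at -0.056 with limma-voom, -0.012 without a filter, -0.10 without the sham libraries of 200 pg, -0.082 with cycles, -0.12 with the letter, and -0.19 to 0.19 with 1 library left out. Runx1 was at -0.037 without the sham libraries of 200 pg and -0.013 with cycles as a covariate. By CPM without length, 3 of 9 members held their rank. In each case the cause was not tested.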
